A study of Mus musculus with 192 samples.

Results

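The lateral positions of rows C and E of a gridded brain section were compared with each other in 24 of the 192 arrays of the study. The members were chosen by position alone: row C was read at C1, C2, C10 and C11, and row E at E1, E2, E10 and E11, with 12 arrays a side and 4 a side in each of 3 datasets. Voxelation cuts a brain section into a grid of small cubes, the voxels, and measures the RNA of each cube. Both sides came from C57BL/6 males of postnatal day 56, with no treatment and no genetic change named, and they differ only in grid position. Per the labels, each sample is RNA of pooled voxels hybridised on a 2-colour array against whole brain RNA, and the datasets are separate harvests. The labels name the voxels by row letter and column number and give no anatomical direction, so "lateral" stands here for the outer columns of the grid.

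The outer part of a forebrain section holds cortex at the surface and, beneath it, white matter and the striatum. Cortex is built of layered excitatory neurons with fewer inhibitory ones, whereas nearly all striatal neurons are inhibitory projection neurons that read dopamine through DARPP-32, the product of Ppp1r1b. Cortical areas differ from each other in their transcription factors, in activity-induced genes such as Arc and Egr1, and in Gap43, a growth cone protein that adult limbic and associative areas keep at high levels. A cube of tissue is a bulk sample, so fewer cells of a type and less RNA per cell cannot be told apart in any value below.

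Values are log2 ratios of the voxel RNA to whole brain RNA, with each array centred on its own median. The deposited rows had been centred on their medians, which cancels in a difference of positions. A higher value probably stands for more of that RNA in the cube, although the sources used here do not state which channel is the numerator. The median absolute deviation over the rows of an array, a measure of spread, had a lowest value of 0.272, a median of 0.391 and a highest of 0.813 in row C, against 0.294, 0.532 and 0.870 in row E. The share of rows not measured was 0.432%, 1.27% and 5.49% in row C, against 0.663%, 3.08% and 9.58% in row E. Row E arrays thus tended to the larger spread and to more missing values, and the part of this in the results was not tested. The lowest correlation between arrays of one dataset was -0.26, and none of 84 such pairs lay under -0.3.

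The main comparison asked which genes differ between rows C and E at the outer columns. Gap43 was higher in row C by 1.05 ± 0.22 (SD, n = 3 datasets), while Camk2g, the gamma subunit of calmodulin kinase II, was lower by -0.84 ± 0.17 and the activity-induced gene Arc by -1.02 ± 0.39. Syndig1l and Ppp1r1b, both abundant in striatal projection neurons, were higher in row C by 1.46 ± 0.20 and 1.04 ± 0.29. This held in 11 and 8 of the 12 pairs of arrays matched by column and dataset. With limma on the 3 dataset differences, 0 of 14841 features passed an adjusted p of 0.05 (0%), and 504 had a p under 0.05 before adjustment, against the 742.1 that evenly spread p-values give. With limma on the 12 column-matched pairs of arrays, 18 features passed (0.121%), 7 higher in row C and 11 lower. Those pairs come from 3 harvests, and the fit treated them as almost independent, with an estimated correlation of -0.02 within a dataset. On simulated data with known answers this fit made more false calls than the fit on the 3 dataset differences, also as a share of its calls. The simulated arrays were independent, so they cannot show what dependence within a harvest does. In them the fit on the 3 dataset differences recovered 12% of differences of size 1 and 91% of size 2, against 65% and 97% over 12 pairs. The count of 0 is therefore no sign that differences of size 1 are absent. The differences of the 3 datasets were nearly uncorrelated over all features, at 0.01, -0.10 and -0.04, so the genes below are given by their values. Where a feature is said below to have passed for row C against row E, this is over the 12 pairs only. None passed over the 3 datasets.

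Over all 14841 features, the measured row C and row E arrays did not overlap for 2 (0.0135%), Timp2 and Camk2g. Timp2, an inhibitor of matrix metalloproteinases, had a lowest, median and highest value of -0.25, 0.13 and 0.48 on the 12 row C arrays, against -0.98, -0.54 and -0.26 on the 12 row E arrays. It differed by 0.74, 0.54 and 0.80 in datasets 1 to 3, a mean of 0.69 ± 0.14, with a limma adjusted p of 0.0159 over 12 pairs and 0.9997 over the 3 datasets. Its gap between the sides was narrow, with the lowest row C array just above the highest row E array. Camk2g had values of -0.51, -0.27 and -0.06 in row C, against 0.11, 0.65 and 1.00 in row E. It differed by -0.84, -1.002 and -0.66 in the 3 datasets (limma adjusted p = 0.00449 over 12 pairs). Both rows of the array that measure Camk2g ran the same way, at -0.97 and -0.70, and so did both of Timp2, at 0.75 and 0.63.

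**Figure D1:**
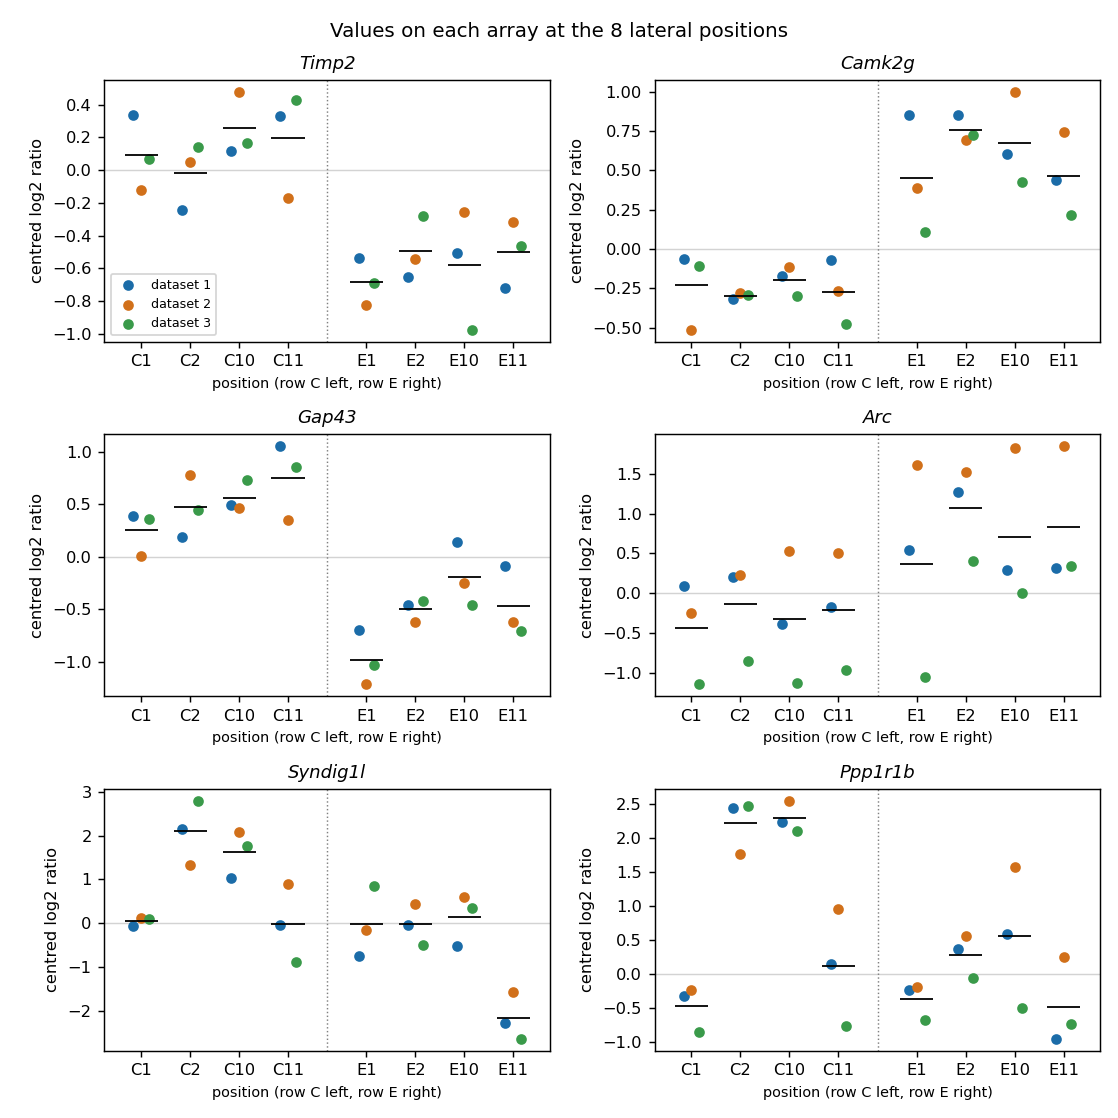
Centred log2 ratio of 6 genes on each array at the 8 lateral positions, row C at the left and row E at the right of the dotted line; points are arrays coloured by dataset and black lines are position means. Timp2 and Camk2g do not overlap between the rows, whereas Syndig1l and Ppp1r1b are high at C2 and C10 and not at C1 and C11.

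Of the genes with higher values in row C, Gap43 was the most regular among those of the growth cone. It measured 0.01, 0.46 and 1.06 as the lowest, median and highest of the row C arrays, against -1.21, -0.54 and 0.14 in row E. All 12 column-matched pairs were higher in row C (limma adjusted p = 0.00168 over 12 pairs), although the 2 sides overlapped at their ends. The lowest row E values stood at E1, at -0.70, -1.21 and -1.03 in the 3 datasets. Gap43 differed by 1.10 ± 0.22 in columns 1 and 2 and by 0.99 ± 0.34 in columns 10 and 11, and its sign was the same at both ends of the grid.

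Vat1l, a relative of a synaptic vesicle membrane protein gene, differed by 1.26 in each dataset, with an SD of 0.004. Its row C arrays ran at -0.49, 0.13 and 0.57 (lowest, median, highest), against -2.15, -1.04 and -0.36 in row E. The sides overlapped by a small margin, and all 12 pairs were higher in row C (limma adjusted p = 0.0159 over 12 pairs). The even size over the datasets is that of the 4-position means; single positions varied more, from -0.36 to -2.15 at E11. Plppr1, of a family of membrane proteins that act in neurite outgrowth, differed by 0.76 ± 0.21. It passed over 12 pairs and not over the 3 datasets (limma adjusted p = 0.0427 and 0.9997).

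The feature with the largest difference carried no symbol in the annotation and is known only as vc0319. It had values of -0.97, 0.29 and 1.31 in row C, against -2.74, -2.18 and -0.93 in row E. It differed by 2.20 ± 0.35 (limma adjusted p = 0.000143 over 12 pairs and 0.306 over 3 datasets). All 12 pairs were higher in row C, and the 2 sides met only at the ends of their ranges. The other 3 features without a symbol passed over 12 pairs: vm005164 and vm019929 were higher in row C by 1.06 and 0.83, and vm000364 was lower by -1.01.

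The 14 genes a direction given here were named by size of difference, since none passed over the datasets, and 17 in each direction met the conditions. The remaining ones higher in row C were Cep192, a centrosome scaffold (1.08 ± 0.26), Fxyd6, a modulator of the sodium pump (1.04 ± 0.70), Tesc, a calcium-binding protein (0.84 ± 0.39), Actn2, an actin crosslinker of dendritic spines (0.82 ± 0.44), Krtap5-4 (0.77 ± 0.34), Klhl13, a ubiquitin ligase adaptor (0.77 ± 0.44), Caln1, a calcium sensor of neurons (0.76 ± 0.29), Foxk1, a forkhead transcription factor (0.72 ± 0.32), Ifitm1 (0.71 ± 0.24) and Pmepa1, which damps TGF-beta signalling (0.71 ± 0.38). Fxyd6 rested mostly on 2 datasets, with differences of 0.29, 1.67 and 1.16. Of these 10 genes, Krtap5-4 came nearest to the threshold over 12 pairs (limma adjusted p = 0.0504), and Syndig1l lay just outside it as well (0.0513).

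Of the genes with lower values in row C, Arc, whose mRNA is induced by neuronal activity and carried into dendrites, had values of -1.15, -0.22 and 0.53 in row C, against -1.05, 0.47 and 1.85 in row E. The ranges overlapped widely, because on both sides dataset 3 was low and dataset 2 mostly high. Within a dataset the rows separated: row E lay above row C in all 12 pairs, with row C minus row E at -0.67, -1.45 and -0.95 in datasets 1 to 3 (limma adjusted p = 0.00964 over 12 pairs). Egr1, an activity-induced zinc finger transcription factor, had values of -1.03, 0.03 and 0.75 in row C, against -0.62, 0.68 and 1.31 in row E. It was lower in row C in all 12 pairs, by -0.68 ± 0.25, and did not pass over 12 pairs (limma adjusted p = 0.0985).

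Kcnab3, a beta subunit of voltage-gated potassium channels, had values of -0.74, -0.17 and 1.23 in row C, against 0.51, 1.01 and 1.61 in row E. The overlap came from 1 row C array, C1 of dataset 1 at 1.23. It differed by -1.16 ± 0.50 (limma adjusted p = 0.00707 over 12 pairs). Nefl, the light neurofilament subunit of large axons, had values of -1.04, -0.36 and 0.24 in row C, against -0.24, 0.52 and 0.88 in row E. It differed by -0.73 ± 0.17 and was lower in all 12 pairs (limma adjusted p = 0.0427 over 12 pairs). Cplx1, a complexin that binds the vesicle fusion machinery, differed by -0.85 ± 0.42 and did not pass (limma adjusted p = 0.0690 over 12 pairs).

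The others on this side were Enkd1 (-1.27 ± 0.73), Ighm, an immunoglobulin heavy chain (-1.02 ± 0.55), Osbpl1a, a lipid-binding protein (-0.98 ± 0.19), Nudt4, an inositol phosphate phosphatase (-0.97 ± 0.43), Fhod3, an actin-nucleating formin (-0.79 ± 0.23), Obox5 (-0.78 ± 0.22), Rcor3, a corepressor (-0.76 ± 0.28) and Dnajc21, a co-chaperone (-0.72 ± 0.31). All of these but Enkd1 and Obox5 passed limma over 12 pairs, with adjusted p between 0.0130 and 0.0427. Enkd1 and Obox5 each had 1 row E array far above the rest, at 4.80 and 4.498, against medians in row E of 0.57 and 0.22. Of the 28 named genes, Cep192 lacked 1 row C array and the rest were measured on every array.

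**Figure D2:**
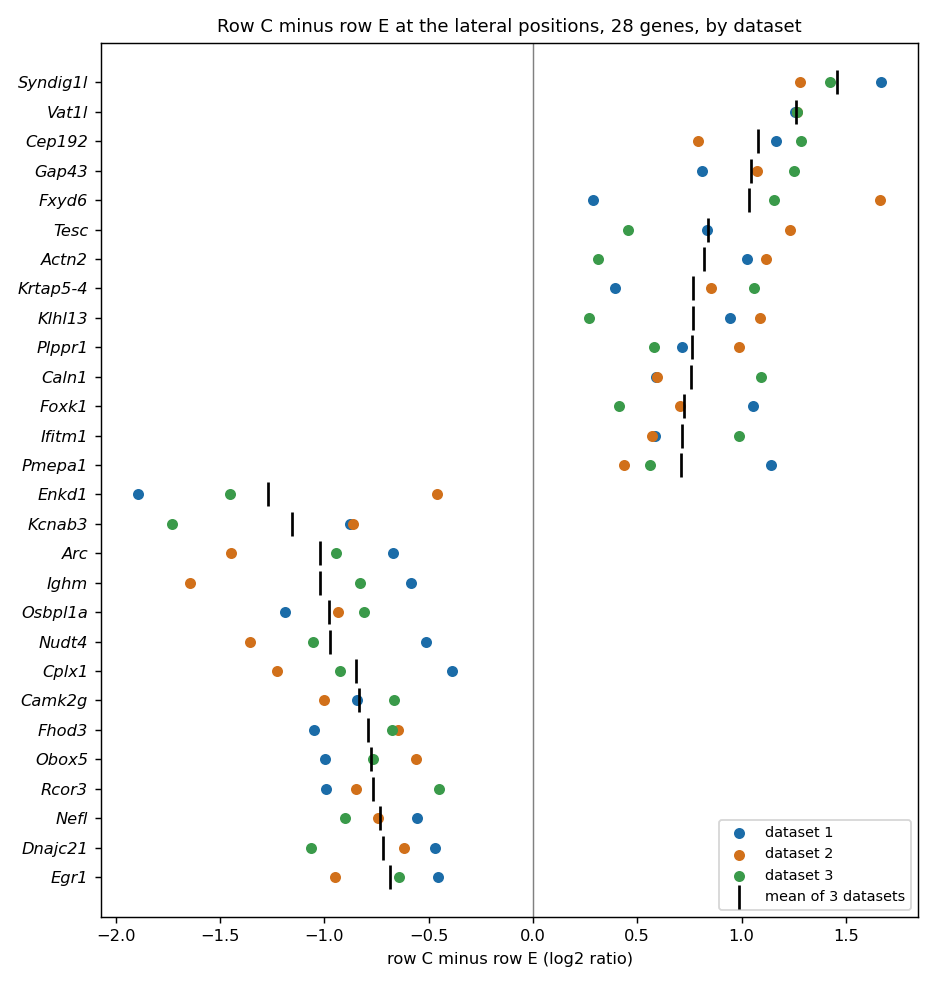
Row C minus row E at the lateral positions, in log2 ratio, for the 28 named genes; coloured points are the 3 datasets and black bars their means. Each gene keeps its sign in 3 of 3 datasets, as the rule for naming asked, and Vat1l has the least spread (SD 0.004) and Enkd1 the most (SD 0.73).

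Gene lists for cell types and functions were set beside the background of all features, of which 8003 of 14841 (53.92%) were higher in row C, with a median difference of 0.02. No list member passed over the 3 datasets. Of the neocortical list, 10 of 30 genes were measured and 10 of 10 were lower in row C, with a median of -0.18 (-0.26, -0.29 and -0.09 in datasets 1 to 3). The mean of these genes had a lowest, median and highest value of -0.17, 0.14 and 0.37 on the row C arrays, against 0.17, 0.30 and 0.54 on the row E arrays, with overlap. Column 11 did not share the difference, at 0.26 ± 0.11 in C11 and 0.24 ± 0.07 in E11. The means were -0.03 ± 0.18 at C1 and 0.24 ± 0.06 at E1, and 0.13 ± 0.09 at C2 and 0.36 ± 0.15 at E2. They were 0.06 ± 0.18 at C10 and 0.46 ± 0.10 at E10. Tle4, a corepressor of deep layer neurons, differed by -0.33 ± 0.10, but was lower in row C in 5 of 12 pairs, with its lowest array, C1 of dataset 2, at -2.31; in columns 2 and 10 it differed by 0.08. Vxn differed by -0.52 ± 0.55. Of the piriform, claustrum and amygdala list 3 of 9 measured genes were higher in row C (median -0.02).

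The striatal list ran the other way, with 7 of 8 measured genes higher in row C and a median of 0.38. Beside Syndig1l and Ppp1r1b these were led by Meis2, a homeodomain transcription factor (0.62 ± 0.20), and Rasd2, a striatal small GTPase (0.44 ± 0.11). The 2 rows that measure Meis2 gave 0.26 and 0.94. Ppp1r1b and Rasd2 were each higher in row C in 8 of 12 pairs, and Meis2 in 10. None of these genes passed (limma adjusted p = 0.34, 0.97 and 0.81 over 12 pairs). Foxp1 and Bcl11b, transcription factors that cortex and striatum share, differed by 0.03 ± 0.25 and -0.01 ± 0.45.

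The level of Ppp1r1b differed within row C. It had values of 2.43, 1.77 and 2.47 at C2 and of 2.22, 2.55 and 2.11 at C10 in datasets 1 to 3, against 0.36, 0.56 and -0.06 at E2 and 0.58, 1.57 and -0.49 at E10. In column 1 it had values of -0.32, -0.24 and -0.85 at C1, against -0.24, -0.19 and -0.68 at E1. Over columns 1 and 11 together Ppp1r1b was higher in row C by 0.25 ± 0.32. The mean of the 8 striatal genes was 0.99 ± 0.50 at C2 and 0.88 ± 0.24 at C10, against 0.16 ± 0.18 at E2 and 0.14 ± 0.37 at E10, and it was 0.00 ± 0.08 at C1 and 0.00 ± 0.37 at C11, against 0.00 ± 0.16 at E1 and -0.48 ± 0.17 at E11. The mean striatal marker level was thus higher in row C in columns 2 and 10, by less in column 11, and about equal in column 1. Its part in the differences of other genes was not tested.

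The outermost column and the one next to it were set against each other to ask whether the row difference is the same in both. For Ppp1r1b it was 0.25 ± 0.32 in columns 1 and 11 and 1.84 ± 0.74 in columns 2 and 10, a difference of -1.59 ± 0.98 (limma adjusted p = 0.986). Rasd2 gave -0.19 ± 0.37 and 1.07 ± 0.56, and Meis2 gave 0.30 ± 0.41 and 0.95 ± 0.09. Syndig1l gave 1.11 ± 0.53 and 1.81 ± 0.58, so it was higher in row C in both, whereas Bcl11b gave 0.32 and -0.51. Some genes outside the striatal list differed less between the columns: Timp2 gave 0.73 ± 0.28 and 0.65 ± 0.13, Camk2g -0.71 ± 0.25 and -0.96 ± 0.09, and Gap43 1.23 ± 0.22 and 0.86 ± 0.31. The limma fit of this difference called 0 of 14841 features (0%), with 473 at an unadjusted p under 0.05. The genes with the smallest p in each direction were Tgfa, a growth factor of the EGF family, at -0.13 ± 0.34 and 1.61 ± 0.25, and Zfp771, at 1.30 ± 0.77 and -0.33 ± 0.41, neither of which passed.

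The 2 ends of the grid were compared in the same way. The row difference in columns 1 and 2 minus that in columns 10 and 11 called 0 of 14841 features with limma (0%), and 523 had an unadjusted p under 0.05. Camk2g differed between rows by -0.87 ± 0.22 in columns 1 and 2 and -0.81 ± 0.23 in columns 10 and 11, and Ppp1r1b by 0.92 ± 0.31 and 1.17 ± 0.28. Wdr5b and Eps8l2 were the genes with the smallest p in each direction: Wdr5b gave -1.38 ± 0.31 and 0.59 ± 0.49, and Eps8l2 gave 1.21 ± 0.07 and -0.53 ± 0.10 (limma adjusted p = 0.998 for both).

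Genes of the meninges and of connective tissue had 8 of 9 measured members higher in row C and a median of 0.37. They were led by Timp2, Dcn, a collagen-binding proteoglycan (0.51 ± 0.41), and Mgp, a matrix protein of vessels and cartilage (0.37 ± 0.09). Igf2, a growth factor of the meninges, differed by 0.59 ± 0.65, Col1a2 by 0.41 ± 0.36 and Sparc by 0.28 ± 0.07, while Col3a1 gave -0.02 ± 0.16. The mean of the 9 genes had a lowest, median and highest value of -0.06, 0.09 and 0.79 in row C, against -0.75, -0.24 and 0.30 in row E. The highest position was C1, at 0.41 ± 0.33, and the lowest was E2, at -0.47 ± 0.24. These markers thus moved with the row difference, and their part in the differences of other genes was not tested. In columns 10 and 11 alone 5 of 9 were higher in row C, with a median of 0.11, and Mgp turned to -0.10.

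**Figure D3:**
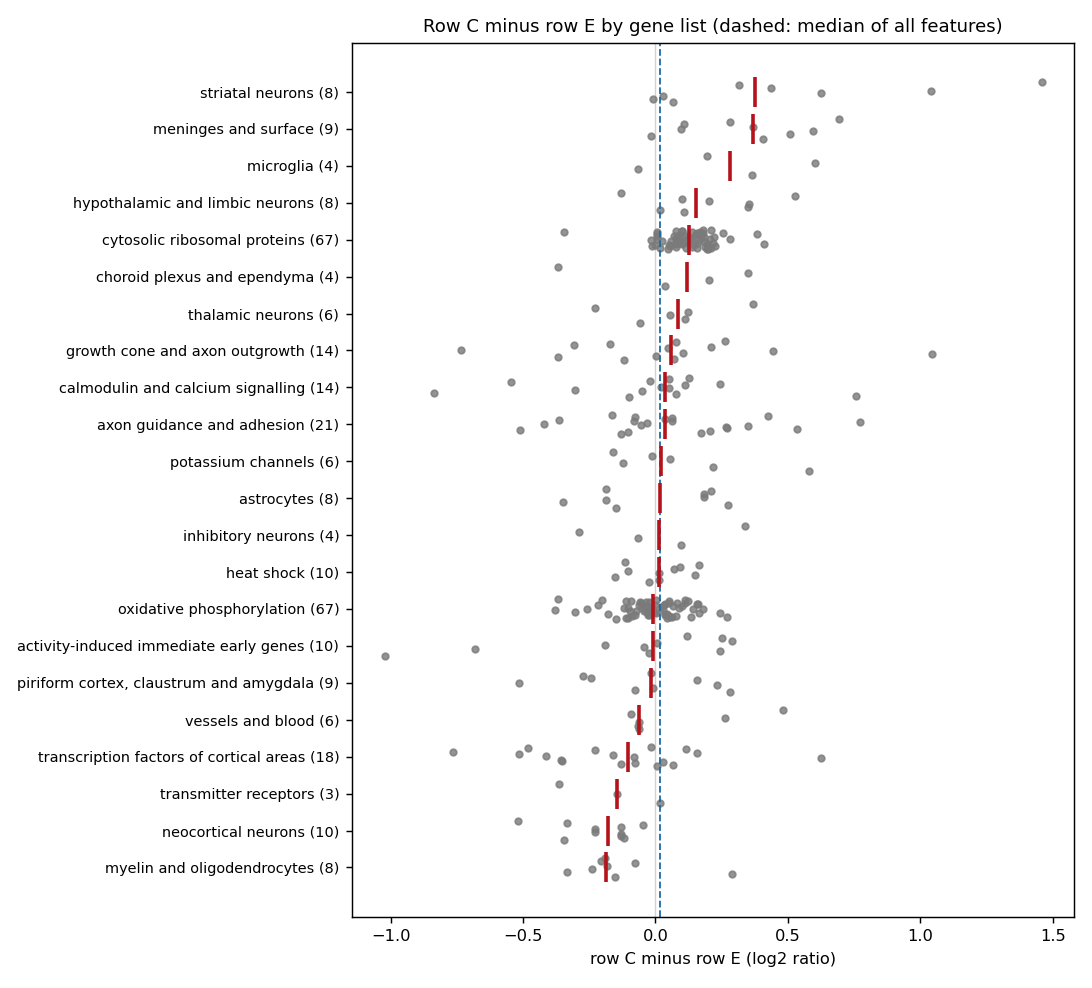
Row C minus row E in log2 ratio for the measured members of each gene list (grey points; number measured in brackets), with list medians as red bars and the median of all features, 0.02, as a dashed line. The striatal and meningeal lists have medians of 0.38 and 0.37, and the neocortical and myelin lists of -0.18 and -0.19.

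Of the myelin list 1 of 8 measured genes was higher in row C (median -0.19). The medians of datasets 1 to 3 were -0.20, -0.16 and 0.06, so dataset 3 did not share the direction, and columns 10 and 11 alone gave -0.06. Cryab, a small heat shock protein of oligodendrocytes, differed by -0.34 ± 0.14 and Car2, a carbonic anhydrase, by 0.29 ± 0.08. Astrocyte genes were split, with 4 of 8 higher in row C (median 0.02), among them Cst3 at 0.28 ± 0.03. That small SD is of the 4-position means. Cst3 was higher in row C in 7 of 12 pairs, and gave 0.47 ± 0.53 in columns 1 and 2 and 0.08 ± 0.58 in columns 10 and 11. Of the microglial genes 3 of 4 were higher in row C (median 0.28), with C1qa, a complement subunit, at 0.36 ± 0.06. Of the vessel and blood list 2 of 6 were higher in row C (median -0.06), with Pdgfrb, a pericyte receptor, at 0.26 ± 0.14. The list's median was above 0 within each dataset, at 0.06, 0.08 and 0.06, and without dataset 3 the count was 4 of 6 (median 0.07), so it has no settled direction. Of the choroid plexus and ependymal list 3 of 4 were higher in row C (median 0.12), while Ttr was lower, at -0.37 ± 0.49. Rarres2 differed by 0.35 ± 0.19, but its lowest row E array stood at -4.20, against medians of -0.25 in row C and -0.40 in row E. In columns 10 and 11 alone Rarres2 gave -0.15. The mean of the list ran at -1.03, -0.22 and 0.58 in row C, against -1.06, -0.25 and 1.08 in row E.

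Activity-induced genes were divided. Of 10 measured, 5 were higher in row C, with a median of -0.01; apart from Arc and Egr1 the list ran from -0.19 (Fosl2) to 0.29 (Ier2), and Fos differed by -0.04 ± 0.13. Of 14 calcium signalling genes 8 were higher in row C (median 0.04). Camk2g and the neuronal calmodulin buffer Nrgn (-0.54 ± 0.17) were on one side and Caln1 on the other; Nrgn had values of -0.20, 0.25 and 0.62 in row C, against 0.34, 0.87 and 1.08 in row E, and was lower in all 12 pairs. Camk2d, the delta subunit of the same kinase, gave 0.08 ± 0.38. The calcineurin subunit Ppp3ca gave -0.02 ± 0.06 over the 4 columns, from -0.45 in columns 1 and 11 and 0.41 in columns 2 and 10.

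Of 14 growth cone and axon genes 9 were higher in row C (median 0.06). Gap43 stood at one end and Nefl at the other, with Marcksl1, a relative of the actin regulator Marcks, at 0.45 ± 0.19. Basp1, which like Gap43 sits on the inner face of growth cone membranes, gave -0.12 ± 0.33, and the neuronal tubulin Tubb3 gave 0.08 ± 0.23.

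Ligands and receptors of axon guidance were measured in 21 genes, of which 11 were higher in row C (median 0.04). Of the ephrins, ligands that repel growing axons, Efna5 was lower in row C, with values of -0.43, -0.14 and 0.39, against 0.07, 0.44 and 0.79 in row E, and differed by -0.51 ± 0.13, whereas Efnb3 differed by 0.53 ± 0.41. The receptor Robo1 differed by 0.77 ± 0.80, with 1.30, 1.17 and -0.15 in the 3 datasets, and Slit3, a ligand of that family, by 0.42 ± 0.29. Efna5 was lower in 11 of 12 pairs, and the other 3 were less regular.

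Transcription factors that pattern cortical areas leaned to row E, with 6 of 18 higher in row C and a median of -0.10. Beside Rcor3 and Meis2, Nr2f1, the area-patterning nuclear receptor COUP-TF1, differed by -0.51 ± 0.31 and Zbtb18, a repressor of projection neurons, by -0.48 ± 0.14. In the limbic and hypothalamic list 7 of 8 were higher in row C (median 0.15), but 4 of 8 without dataset 1 (median 0.08) and 4 of 8 in columns 1 and 11 alone (median 0.09). Ndn, a paternally expressed gene of post-mitotic neurons, was higher in all 12 pairs, with values of -0.85, 0.13 and 0.66 in row C, against -0.90, -0.61 and 0.00 in row E, a difference of 0.53 ± 0.27.

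Several lists held few measured genes or had medians near 0. Of 6 potassium channel genes 3 were higher in row C (median 0.02), with Kcnd2 at 0.58 ± 0.77. The channel subunit gene Kcnab3, at -1.16 ± 0.50, was not among these 6. Of 3 transmitter receptors 1 was higher (median -0.15), with the glutamate receptor Gria3 at -0.36 ± 0.27. Of 10 heat shock genes 6 were higher (median 0.01), with Hspe1 at 0.16 ± 0.13, and of 4 inhibitory neuron genes 2 were higher (median 0.01), with the neuropeptide Sst at 0.34 ± 0.48. Of 6 thalamic genes 4 were higher in row C (median 0.08), with Rora at -0.23 ± 0.10. The thalamic medians of datasets 1 to 3 were -0.06, 0.46 and -0.32, and without dataset 2 the count was 1 of 6 (median -0.17).

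Genes of the cytosolic ribosome were 63 of 67 higher in row C, against 53.92% of all features, but by small amounts. Their median difference was 0.13, with -0.01, 0.26 and 0.14 in datasets 1 to 3, so dataset 1 did not share it. Without dataset 2 the count was 50 of 67 and the median 0.07. Genes of oxidative phosphorylation, the other large household list, were 31 of 67, with a median of -0.01.

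Row D lies between the rows compared. In columns 10 and 11 its mean lay between those of rows C and E for 20 of the 28 named genes (71.4%), against 22.7% of the 14781 features with a value there. In columns 1 and 2, added after seeing the data, and where earlier results had put the order of the row D arrays of dataset 2 in doubt, it lay between them for 24 of 28 (85.7%), against 35.4% of 14808. The named genes were chosen for large row differences on arrays that include these positions of rows C and E, so nothing is read from these counts. The values that follow are those of columns 10 and 11. Camk2g was -0.23 ± 0.14 in row C, 0.27 ± 0.06 in row D and 0.57 ± 0.28 in row E, and Vat1l was -0.01 ± 0.28, -0.37 ± 0.16 and -1.02 ± 0.51. Gap43 was 0.66 ± 0.22 in row C, -0.05 ± 0.25 in row D and -0.33 ± 0.32 in row E. Nefl was one of the other 8, at -0.44 ± 0.42, 0.30 ± 0.37 and 0.21 ± 0.34.

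**Figure D4:**
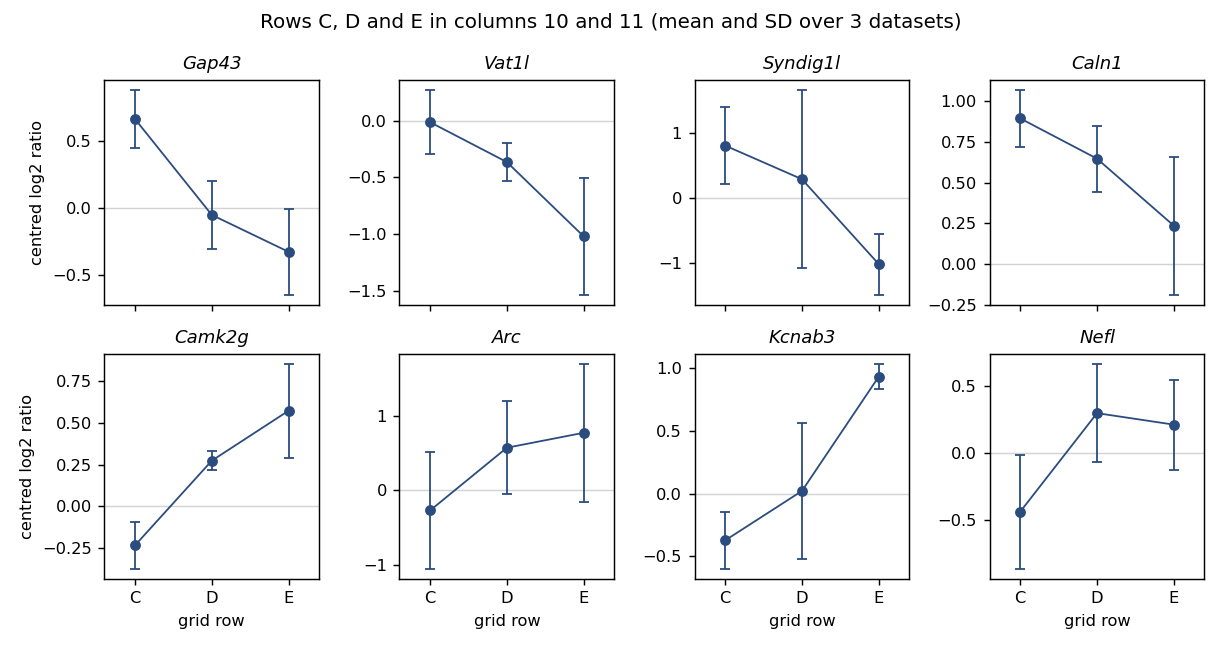
Centred log2 ratio of 8 genes in rows C, D and E of columns 10 and 11; points are means and bars SDs over 3 datasets. Row D lies between rows C and E for each of the 8 except Nefl, where it is 0.30 against -0.44 in row C and 0.21 in row E.

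The row difference of the outer columns was then set against that of columns 4 and 8, nearer the middle of the grid, to ask which genes differ between rows in another way there. The 2 differences share no array. With limma on 1 value per dataset, 6 of 14083 features were called (0.0426%), 5 with a higher and 1 with a lower difference in the outer columns, and 896 had a p under 0.05 before adjustment, against an even spread of 704.2. Ppp1r1b differed between rows by 1.04 ± 0.29 in the outer columns and by -1.51 ± 0.18 in columns 4 and 8 (limma adjusted p = 0.00898). Syndig1l differed by 1.46 ± 0.20 and -1.05 ± 0.57 (limma adjusted p = 0.0160). Both were high in row E of the inner columns, where Ppp1r1b averaged 2.53 ± 0.86 at E4 and 2.35 ± 0.61 at E8, whereas in the outer columns the high positions lay in row C.

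Kcnab3 had the opposite turn, at -1.16 ± 0.50 in the outer columns and 1.37 ± 0.40 in columns 4 and 8 (limma adjusted p = 0.0328). Ttr, the transthyretin of choroid plexus, differed by -0.37 ± 0.49 in the outer columns and by -3.75 ± 0.47 in columns 4 and 8 (limma adjusted p = 0.00505), and the features vc0339 and vm005861, without a symbol, behaved alike, at 0.05 and 0.02 in the outer columns and -4.61 and -2.52 in columns 4 and 8. For these 3 the inner row E positions carried the difference: Ttr averaged 3.38 ± 0.70 at E4 and 3.89 ± 0.96 at E8. The 2 rows of Ttr did not go together in the outer columns, at 0.27 and -1.01. Without the dataset as a block 1 of the 6 calls was left, vc0339.

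Other genes had row differences of the same sign in both places. Timp2 differed between rows by 0.69 ± 0.14 in the outer columns and 0.68 ± 0.30 in columns 4 and 8, Ifitm1 by 0.71 ± 0.24 and 0.68 ± 0.31, Vat1l by 1.26 ± 0.004 and 1.01 ± 0.09, and Rcor3 by -0.76 ± 0.28 and -0.98 ± 0.56. Gap43 gave 1.05 ± 0.22 and 0.71 ± 0.34. In contrast, Camk2g, Nefl and Cplx1 had opposite signs in the 2 places, at -0.84, -0.73 and -0.85 in the outer columns and 0.59, 0.60 and 1.44 in columns 4 and 8, and did not pass (limma adjusted p = 0.418, 0.417 and 0.0937).

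Because Egr1 was among the named genes, the promoters of the named genes were searched for the site it binds, GCGGGGGCG or GCGTGGGCG on either strand. RefSeq promoters (GRCm38.p6, from 250 bases before to 50 after the gene start) were given for 15 of the 28 genes, with 19 promoters, and 2 of the 19 held the site, against 3.47% of all 32851 promoters. The 2 are shown, with the match in capitals, since they belong to genes of opposite sign: Cplx1, lower in row C, and Tesc, higher in row C.
Cplx1, chr5:108549978-108550277, minus strand: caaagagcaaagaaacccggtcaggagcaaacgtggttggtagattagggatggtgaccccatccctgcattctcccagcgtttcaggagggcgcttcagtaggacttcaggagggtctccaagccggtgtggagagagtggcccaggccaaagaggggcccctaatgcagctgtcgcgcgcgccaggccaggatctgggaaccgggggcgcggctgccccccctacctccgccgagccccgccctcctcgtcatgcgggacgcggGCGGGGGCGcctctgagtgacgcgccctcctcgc
Tesc, chr5:118027493-118027792, plus strand: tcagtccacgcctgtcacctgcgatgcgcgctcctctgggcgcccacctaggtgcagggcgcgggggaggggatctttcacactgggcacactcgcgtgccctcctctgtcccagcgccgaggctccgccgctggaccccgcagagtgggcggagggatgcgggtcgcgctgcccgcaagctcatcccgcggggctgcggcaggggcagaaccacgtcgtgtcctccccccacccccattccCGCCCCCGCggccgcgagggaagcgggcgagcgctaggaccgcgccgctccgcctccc
The match begins at base 17 of the gene in Cplx1 and 8 bases before the gene start in Tesc. It is a match of letters and shows no binding.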

How the data were processed

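The authors deposited 1 table of log2 ratios, 20847 rows by 192 arrays; for its scanner, background correction and normalization no source used here gives details. Trizol total RNA was reverse transcribed and coupled to dyes, per the labels' protocols, with voxel RNA in Cy3 in datasets 1 and 3 and in Cy5 in dataset 2. Values at the floor of -6.64 (19323, or 0.483% of all) were treated as not measured, and 1.93% were missing. Arrays were centred on their medians over the 7961 rows measured on all 192 arrays, and control rows (20) were left out. Rows needed at least 80% of the arrays measured in each dataset and 3 a side, and rows of 1 symbol were averaged. This left 14841 features, 8002 with a symbol from the platform annotation and 2724 averaging several rows.

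limma 3.58.1 (R 4.3.3; lmFit, eBayes, duplicateCorrelation) tested 1 difference per dataset against 0, two-sided, with Benjamini-Hochberg adjustment over all features, and the same over 12 column-matched pairs with the dataset as random block. The dataset numbers pair the arrays because each is 1 harvest: the deviations of rows C and E from their means correlated at 0.249, 0.528 and 0.554. The p-values of the first fit measure the spread between 3 harvests. Those over 12 pairs measure the spread between pairs taken as nearly independent. Precision is limited by the number of harvests. The scripts were tested on simulated data of independent arrays, where the fit over 12 pairs made more false calls and recovered more of the true differences. Named genes are the 14 a direction with the largest difference, filled from those with an unadjusted p under 0.01, 1 sign in 3 datasets and in at least 10 of 12 pairs, and, in each list, genes with a p under 0.05 (up to 4) or the smallest p. List members given beyond these were chosen after their values were seen. Lists, comparisons and positions were chosen with earlier results of these data known.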

Additional observations from a re-analysis of the deposited data

Results flagged for a closer look

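The row difference (row C minus row E) of 6 features was called as unlike between the outer columns and columns 4 and 8, by limma on 1 value per dataset. The outer difference minus the inner one was 4.67 for vc0339, 3.38 for Ttr, 2.55 for Ppp1r1b, 2.50 for Syndig1l, 2.54 for vm005861 and -2.53 for Kcnab3. Each kept its sign in 3 of 3 datasets. For Ttr, vc0339 and vm005861 the value came from the inner columns, where the row difference was -3.75, -4.61 and -2.52, against -0.37, 0.05 and 0.02 in the outer columns. For the other 3 both places differed between rows, with opposite signs.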

How the results depend on the processing

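The count of 0 for row C against row E was the same in every other setting tried except 1: without the replicate block (0), arrays not centred, quantile normalization, floor values kept, only rows measured on all 24 arrays, no filter, each row alone, values limited to within 3 of 0, the median over positions, and each pair of columns alone; leaving out each dataset gave 0 to 0. The exception was the fit over 12 column-matched pairs (18). Both other differences of effects within the outer columns stayed at 0 throughout. The 6 calls against columns 4 and 8 were the least steady: 1 without the replicate block, 1 with floor values kept, 21 with only rows measured on every array used, and 1 to 41 when a dataset was left out (41 without dataset 1, 1 without dataset 2 and 1 without dataset 3). The feature left in each of the settings with 1 call was vc0339, and Ppp1r1b, for one, then had an adjusted p of 0.757, 0.151, 0.178 and 0.531. The causes were not tested. Of the 922 values of named genes under these settings 18 came past the threshold, in the fit over 12 pairs, and 6 turned sign: Tle4 with the median over positions (0.0284) and in columns 2 and 10 alone (0.0804), Rasd2 in columns 1 and 11 alone (-0.19), Mgp (-0.10) and Rarres2 (-0.15) in columns 10 and 11 alone, and Hspe1 in columns 2 and 10 alone (-0.0491). None of the 28 named genes turned, but they were chosen for 1 sign in 3 datasets and in at least 10 of 12 pairs. That choice largely fixed this outcome, so nothing is read from it. The neocortical count of 0 of 10 higher in row C became 3 of 10 in columns 1 and 11 alone, and the striatal 7 of 8 became 5 of 8 there.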
